A study of Mus musculus with 6 samples.

Results

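Apical vesicle trafficking genes encode the machinery that carries membrane and cargo to the luminal face of an epithelial cell. They were followed in 6 RNA-seq libraries of cells sorted from embryonic mouse livers, as 10 genes chosen by name for their known function: Cdc42, Myo5b, Stx3, Vamp7, Vamp8, Sytl2, Sytl4, Mal, Mal2 and Anxa2. Of these 10 genes, 9 were matched among the 52550 genes of the expression table and all 9 passed the filter on low values (mean TPM of 1 or more). Vamp7, a vesicle SNARE, was not analysed here. The cells were GFP-positive cells sorted from livers of CD-1 embryos carrying the Sox9-GFP transgene, which marks cells that use the Sox9 promoter, after depletion of blood lineages with antibodies. No treatment was given, and the only labelled difference between the groups was the stage: E16.5 with 3 libraries and E18.5 with 3, named A, B and C within a stage, and 15 livers were pooled for each. The sample labels write the stages as embryonic days 16 and 18. The p-values measure the spread between these pools, since single embryos were not separated.

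In a bile duct, cholangiocytes turn their apical side to a shared lumen. Recycling endosomes bearing Rab11 move along actin with the motor myosin Vb, are tethered by the exocyst and by synaptotagmin-like proteins that bind Rab27, and fuse through the target SNARE syntaxin 3 with vesicle SNAREs such as VAMP7 and VAMP8. Cdc42 and annexin A2 act at the apical membrane itself, and the MAL proteins sort cargo into raft-like carriers. Inherited loss of MYO5B or STX3 is known for its effect on the apical surface of enterocytes, and MYO5B variants also cause cholestasis.

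Levels are given in TPM (transcripts per 1000000), which divides by gene length and library total and so allows genes to be ranked. The recovered depth was 23193537 to 26206374 reads per E16.5 library and 13093937 to 22643868 reads per E18.5 library, so that each E18.5 library was the shallower. The 8 trafficking genes with recovered reads rested on 4 to 7944 reads per library, and none was at or under the level that 3 reads give. The labelled cell type was checked on 11 cholangiocyte markers, whose summed level was 783 to 2583 TPM at E16.5, against 8232 to 14094 TPM at E18.5, with 1 marker at 0 in some library. Without Spp1 the sum was 314 to 817 TPM at E16.5, against 1604 to 1973 TPM at E18.5. The lowest sum was that of E16.5 replicate C. A list of 12 hepatoblast markers summed to 165267 to 208352 TPM at E16.5, against 37748 to 90427 TPM at E18.5. Of the other lists, 12 megakaryocyte markers summed to 3535 to 10164 TPM at E16.5, against 103 to 811 TPM at E18.5, and 12 acinar markers reached 2602 TPM in E16.5 replicate A and 248 TPM or less in each other library. Erythroid markers summed to 181 to 721 TPM, leukocyte markers to 84.8 to 150 TPM, endothelial markers to 136 to 255 TPM and endocrine markers to 6.42 to 96.3 TPM over the 6 libraries. The 10 mesenchymal markers summed to 283 to 443 TPM in the E16.5 libraries and to 575 to 1031 TPM in those of E18.5, without overlap. Of the 10, 3 were called higher, near the 26.0% of all genes, and 1 after median-of-ratios scaling between libraries. The median log2 change of the 10 was 1.08, beside 0.42 over all genes. In such bulk samples, fewer cells of a type and less RNA per cell cannot be told apart.

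**Figure D1:**
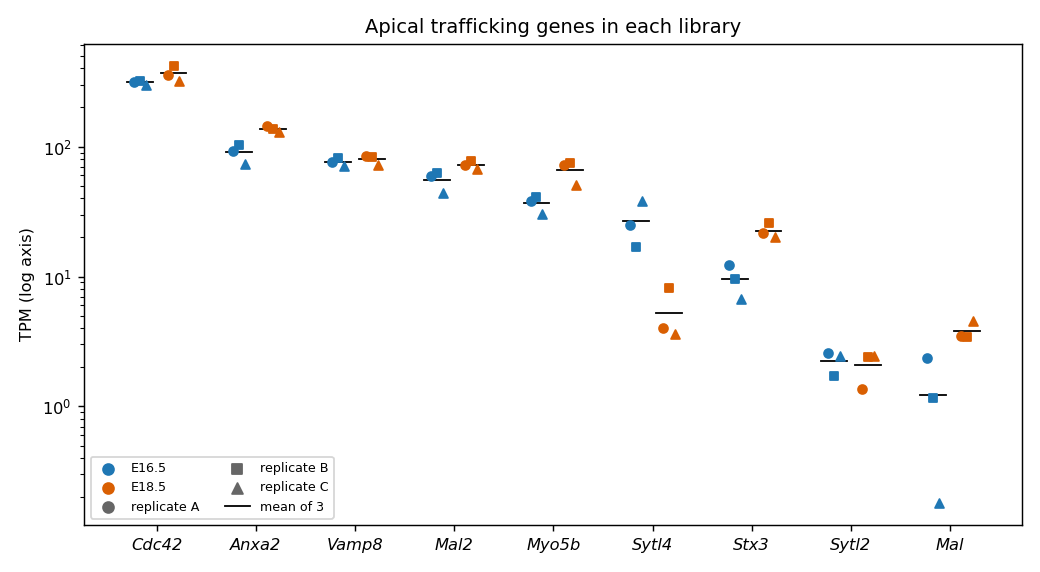
TPM of the 9 apical trafficking genes in each library, on a log axis, ordered by their E16.5 mean; blue is E16.5, orange is E18.5, the symbol gives the replicate and the line the mean of 3. Cdc42 lies highest at 300 to 418 TPM, Sytl4 is the gene whose E18.5 points all lie below its E16.5 points, and the lowest point is Mal in E16.5 replicate C at 0.181 TPM.

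The levels of the trafficking genes spanned from 0.181 TPM, for Mal in 1 library, to 418 TPM, for Cdc42 in another. At E16.5 the order of the mean TPM was Cdc42, Anxa2, Vamp8, Mal2, Myo5b, Sytl4, Stx3, Sytl2 and Mal. Neighbours in that order whose libraries overlapped were Anxa2 and Vamp8, Myo5b and Sytl4, and Sytl2 and Mal. At E18.5 the first 5 genes kept their places, whereas Stx3 stood above Sytl4 and Mal above Sytl2. The overlapping neighbours were then Vamp8 and Mal2, Mal2 and Myo5b, and Sytl4 and Mal. Cdc42, whose E16.5 mean was 312 TPM, was above 99.0% of the 21819 protein-coding genes listed at E16.5, and Mal, at 1.23 TPM, was above 39.6%.

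Between the stages, Stx3, Myo5b and Anxa2 rose and Sytl4 fell, while the changes of Cdc42, Vamp8, Sytl2, Mal and Mal2 did not pass the test. Called means an adjusted p under 0.05 in limma on log2(TPM + 1), with p-values adjusted by Benjamini-Hochberg across the 22452 genes that passed the filter. Thus 4 of 9 trafficking genes were called, where 31.2% of all genes tested were. Of all genes, 26.0% were called higher and 5.22% lower at E18.5, against 3 and 1 of the 9 trafficking genes. In the fit limited to a mean of at least 5 TPM, which leaves out Mal and Sytl2, 43% of 15370 genes were called, and 4 trafficking genes. For 6 of the 9 genes no library of one stage lay within the range of the other, as for 53.3% of all genes tested. The median log2 fold change was 0.39 over the 9 genes and 0.42 over all genes. Median-of-ratios scaling between libraries, which brought the median of all genes to 0.02, gave a median of -0.05 over the 9 genes and called Stx3 higher and Sytl4 and Vamp8 lower, at 17.2% of all genes called. Of the 22452 genes, 1527 were then called higher and 2335 lower. Without E18.5 replicate A, 0 of the 9 genes were called in limma and 5 had an unadjusted p under 0.05, with 5.11% of all genes called, and Stx3, Myo5b, Anxa2 and Sytl4 kept their direction. Without E18.5 replicate B, 1 was called, Sytl4. With 3 libraries against 3, an exact permutation test on TPM cannot give a two-sided p below 0.1, the value it gave for the 6 genes without overlap.

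**Figure D2:**
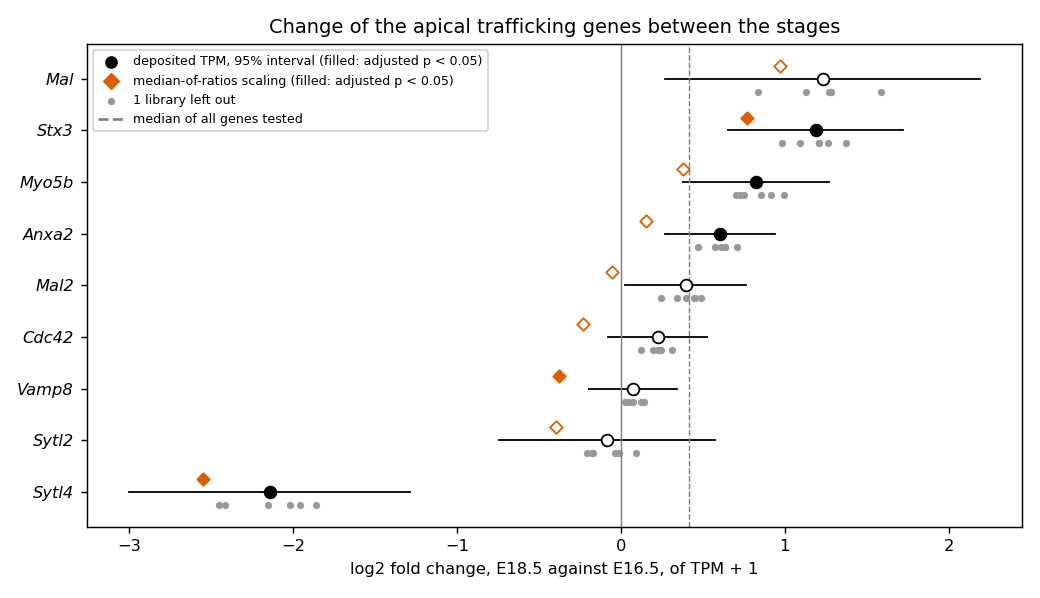
Log2 fold change of TPM + 1 between E18.5 and E16.5 for each trafficking gene; circles are the deposited TPM with 95% intervals, diamonds median-of-ratios scaling, grey points fits with 1 library left out, filled symbols an adjusted p under 0.05 and the dashed line the median of all genes tested, 0.42. Sytl4 lies at -2.14 and Stx3 at 1.19, both called under either scaling, while Myo5b and Anxa2 are called only on the deposited TPM and Vamp8 only after scaling.

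Stx3 encodes syntaxin 3, the target SNARE of the apical membrane (Ensembl ENSMUSG00000041488.16, GRCm38 chr19:11775118-11819403, minus strand). Its level was 12.3, 9.52 and 6.72 TPM in E16.5 replicates A to C and 21.7, 25.6 and 20.1 TPM at E18.5. Each E18.5 library stood above each E16.5 library, and E16.5 replicate C was the lowest. Stx3 rose 2.36-fold in its mean TPM, from 9.52 ± 2.80 to 22.5 ± 2.83 (SD, n = 3 each). On the log2 scale the change was 1.19 (SE 0.23, limma adjusted p = 0.0145). With median-of-ratios scaling it was 0.77 (limma adjusted p = 0.0280). The call was lost without E18.5 replicate A (adjusted p = 0.0570 in limma) or E18.5 replicate B (0.0517).

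Vamp8 encodes a vesicle SNARE of endosomes and secretory granules that pairs with syntaxins (ENSMUSG00000050732.9, chr6:72385223-72390703, minus strand). Its level was 75.9, 81.1 and 70.9 TPM at E16.5, against 85.0, 82.6 and 72.6 TPM at E18.5. The stages overlapped, and the range within a stage was 1.14-fold and 1.17-fold. The log2 change was 0.07 (95% interval -0.20 to 0.34, limma adjusted p = 0.634). Median-of-ratios scaling turned it to -0.38 (limma adjusted p = 0.0387), so the sign of the Vamp8 change depends on how the libraries are set against each other. Vamp8 stood above Stx3 in each of the 6 libraries.

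Myo5b encodes myosin Vb, the motor of Rab11 recycling endosomes (ENSMUSG00000025885.18, chr18:74440936-74771493, plus strand). Its level was 37.9, 41.2 and 30.5 TPM at E16.5, against 72.0, 74.7 and 50.9 TPM at E18.5. The stages did not overlap, and replicate C was the lowest at each stage. The mean rose 1.80-fold, from 36.5 ± 5.52 to 65.9 ± 13.0 TPM (SD, n = 3 each), with a log2 change of 0.82 (SE 0.19, limma adjusted p = 0.0216). The change was 0.38 with median-of-ratios scaling (limma adjusted p = 0.106). Leaving out 1 library lost the call for E16.5 replicate A (limma adjusted p = 0.0512), E16.5 replicate C (0.0540), E18.5 replicate A (0.0773) and E18.5 replicate B (0.0679).

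Anxa2 encodes annexin A2, which binds phosphoinositides at the apical membrane and is known to recruit Cdc42 there (ENSMUSG00000032231.14, chr9:69453620-69491795, plus strand). Its level was 93.1, 103 and 74.0 TPM at E16.5, against 143, 136 and 130 TPM at E18.5. All E18.5 libraries were above the E16.5 libraries, and the E18.5 libraries differed among themselves by 1.09-fold only. The mean rose 1.51-fold, from 90.0 ± 14.8 to 136 ± 6.21 TPM (SD, n = 3 each), with a log2 change of 0.61 (SE 0.14, limma adjusted p = 0.0229). With median-of-ratios scaling the change was 0.15 (limma adjusted p = 0.337). The call was lost without E16.5 replicate A (limma adjusted p = 0.0534), E18.5 replicate A (0.0801) or E18.5 replicate B (0.0626). An antisense gene, Gm16144, shares 98 bp or 2.63% of the Anxa2 exons, and whether counting used the strand is not given in the sources used here.

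Cdc42 encodes the small GTPase that sets apical identity together with the Par complex (ENSMUSG00000006699.17, chr4:137319696-137357720, minus strand). Its level was 312, 322 and 300 TPM at E16.5, against 357, 418 and 322 TPM at E18.5. The stages touched, because E18.5 replicate C lay level with E16.5 replicate B. The log2 change was 0.22 (95% interval -0.08 to 0.53, limma adjusted p = 0.209) and -0.23 with median-of-ratios scaling (limma adjusted p = 0.157).

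Sytl4 encodes a synaptotagmin-like protein, also called granuphilin, that binds Rab27 and is used in apical delivery by cultured epithelial cells and in granule release by endocrine cells and platelets (ENSMUSG00000031255.14, chrX:133936385-133981812, minus strand). Its level was 24.9, 17.0 and 38.1 TPM at E16.5, against 4.02, 8.13 and 3.60 TPM at E18.5. The stages did not overlap, with E16.5 replicate C highest and E18.5 replicate B the highest of its stage. The mean fell to 0.197 of its E16.5 value, from 26.7 ± 10.6 to 5.25 ± 2.50 TPM (SD, n = 3 each). The log2 change was -2.14 (SE 0.36, limma adjusted p = 0.0120) and -2.55 with median-of-ratios scaling (limma adjusted p = 0.0138). Sytl4 was called in 16 of 17 alternative settings, the exception being the fit without E18.5 replicate A (limma adjusted p = 0.0515). It was the trafficking gene that fell by the test, and it rested on 680 to 1556 reads per E16.5 library and 75 to 213 reads per E18.5 library.

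Sytl2, its paralog and also a Rab27 effector (ENSMUSG00000030616.15, chr7:90302252-90410719, plus strand), was at 2.56, 1.72 and 2.43 TPM at E16.5, against 1.37, 2.41 and 2.44 TPM at E18.5. The stages overlapped, with the lowest value in E18.5 replicate A and the highest in E16.5 replicate A, and the log2 change was -0.08 (95% interval -0.74 to 0.58, limma adjusted p = 0.828). Among the other synaptotagmin-like genes, Sytl5 had mean levels of 49.1 TPM at E16.5, against 65.6 TPM at E18.5, which made it the most abundant of the 4 that were tested. Its log2 change of 0.40 (limma adjusted p = 0.0840) and that of Sytl1, 0.68 (limma adjusted p = 0.0569), did not pass the test.

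The 3 largest falls among the partner genes were Rab27b, Unc13d and Rab27a. Rab27a and Rab27b were named as direct partners, and Unc13d for its size of change. The Rab27 effectors Sytl1 and Sytl5 described above were not lower at E18.5 on the deposited TPM. Rab27b, the GTPase of dense granule release, was at 62.8, 40.4 and 106 TPM at E16.5, against 6.95, 14.2 and 8.39 TPM at E18.5. Rab27a was at 16.2, 10.1 and 23.9 TPM at E16.5, against 2.64, 4.99 and 2.98 TPM at E18.5. Unc13d, which encodes the Rab27 effector Munc13-4, was at 38.9, 24.2 and 62.5 TPM at E16.5, against 4.47, 9.16 and 7.21 TPM at E18.5. None of the 3 overlapped between the stages, and all had replicate C highest and replicate B lowest at E16.5, the order that Sytl4 also had. Their log2 changes were -2.65, -1.93 and -2.38, with limma adjusted p of 0.00945, 0.0132 and 0.0106. Markers of megakaryocytes, a cell type known to use this machinery, moved with these genes: 12 of 12 listed markers were called lower at E18.5, beside 5.22% of all genes. None of the 12 was at 0 in any library, and their sum was highest in replicate C and lowest in replicate B at E16.5. Partners not called lower on the deposited TPM, among them Rab11a, Stx2, Snap23, Vamp2 and Vamp3, had this E16.5 order too. At E18.5 the megakaryocyte sum was highest in replicate B, as were Sytl4, Rab27a, Rab27b and Unc13d. It was lowest in replicate A, as were Rab27a, Rab27b and Unc13d, whereas Sytl4 was lowest in replicate C. The leukocyte sum had the same order of the replicates as the megakaryocyte sum at each stage. It was 101, 84.8 and 133 TPM in E16.5 replicates A to C, and 84.8, 150 and 104 TPM in those of E18.5. Per 1000 TPM of the megakaryocyte list, Sytl4 was at 3.74 to 4.81 TPM at E16.5 and at 10.03 to 38.9 TPM at E18.5. The same measure was also higher at E18.5 for Rab27a (2.35 to 2.86, against 6.16 to 25.5), Rab27b (10.3 to 11.4, against 17.6 to 67.3) and Unc13d (6.15 to 6.86, against 11.3 to 43.2). The part of megakaryocytes and of leukocytes in the changes of Sytl4 and of the 3 partners was not tested.

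**Figure D3:**
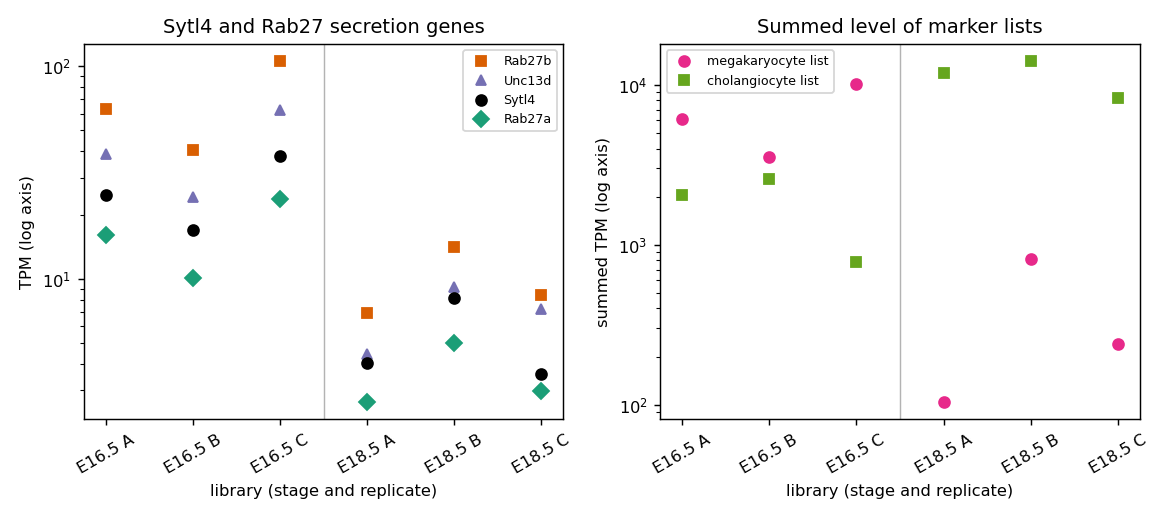
TPM of Sytl4, Rab27a, Rab27b and Unc13d (left) and the summed TPM of the 12 megakaryocyte and 11 cholangiocyte markers (right) in each library, both on log axes. At E16.5 the secretion genes and the megakaryocyte sum, 10164 TPM in replicate C and 3535 TPM in replicate B, share the order of the replicates, while the cholangiocyte sum is lowest in replicate C at 783 TPM.

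Mal and Mal2 encode raft-associated proteolipids, the first of direct apical carriers and the second of transcytosis in hepatocytes. Mal (ENSMUSG00000027375.14, chr2:127633226-127656695, minus strand) was at 2.35, 1.15 and 0.181 TPM at E16.5, against 3.47, 3.45 and 4.52 TPM at E18.5. The stages did not overlap, but the E16.5 libraries differed 13.0-fold, and the lowest of them held 4 reads, with a 95% exact (Clopper-Pearson) interval of 0.0492 to 0.462 TPM for counting error only. Its log2 change of 1.23 (SE 0.41, limma adjusted p = 0.0563) did not pass the test. Without E16.5 replicate A the change was 1.59 (limma adjusted p = 0.0408), and Mal was also called after rescaling without haemoglobin and structural RNA genes (log2 change 1.26, limma adjusted p = 0.0391).

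Mal2 (ENSMUSG00000024479.2, chr15:54571192-54602847, plus strand) was far more abundant, at 59.3, 62.6 and 44.0 TPM at E16.5, against 72.0, 77.8 and 67.2 TPM at E18.5. The stages did not overlap, with E16.5 replicate C again the lowest. Its log2 change of 0.39 (95% interval 0.03 to 0.76, limma adjusted p = 0.0910) lay close to the median of all genes and became -0.05 with median-of-ratios scaling (limma adjusted p = 0.729).

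E16.5 replicate C was the lowest library of its stage for 7 of the 9 genes, the exceptions being Sytl4 and Sytl2. That library also had the lowest cholangiocyte sum and the highest megakaryocyte and hepatoblast sums of its stage, and their part in the trafficking levels was not tested. In the fit without E16.5 replicate C, Stx3 changed by 0.98 (limma adjusted p = 0.0244), Anxa2 by 0.47 (0.0350) and Sytl4 by -1.86 (0.0267), all still called. Myo5b changed by 0.70 in that fit and lost its call (limma adjusted p = 0.0540). With both E16.5 replicate C and E18.5 replicate B left out, Sytl4 was called and the other 8 genes were not.

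The wider pathway was described by 63 partner genes, of which 61 were tested and 28 (45.9%) were called, 24 higher and 4 lower, beside 31.2% of all genes called, 26.0% higher and 5.22% lower. Their median log2 change was 0.44, beside 0.42 for all genes, and the stages did not overlap for 42 of them, beside 53.3% of all genes. The share called depends on level: with a mean of at least 5 TPM, 43% of 15370 genes were called, and 29 partners. Of the 61 partners, Myo5a, Sytl1 and Lgals3 lay below that limit. After median-of-ratios scaling 7 partners were called higher and 9 lower, beside 17.2% of all genes called, with 1527 of 22452 higher and 2335 lower. Among 15 tested Rab proteins, Rab effectors and class V myosins, 7 were called higher and 2 lower, beside 26.0% and 5.22% of all genes. After median-of-ratios scaling 1 of the 15 was called higher and 5 lower, beside 1527 and 2335 of the 22452 genes. Rab11a, the GTPase of the recycling endosome that binds myosin Vb, was at 54.6 ± 5.27 TPM at E16.5, against 48.8 ± 6.78 TPM at E18.5, with a log2 change of -0.16 (limma adjusted p = 0.391). Rab11a was called lower with median-of-ratios scaling (-0.61, limma adjusted p = 0.0344) and, at the threshold, with quantile normalization (-0.45, limma adjusted p = 0.049996). Rab25, its epithelial paralog, rose by 1.26 (limma adjusted p = 0.0346), from 7.03 ± 3.37 to 16.9 ± 1.08 TPM (SD, n = 3 each). Rab11fip1, an adaptor of Rab11, had a change of 0.94 that lay at the threshold (limma adjusted p = 0.0495) and was called in 3 of 17 alternative settings. Myo5c, the epithelial paralog of Myo5b, rose by 0.75 (limma adjusted p = 0.0238) to 67.3 ± 11.6 TPM at E18.5, close to the level of Myo5b, and Myo5a was at 5.45 ± 0.637 TPM (log2 change 0.66, limma adjusted p = 0.0628). Rab8a, a GTPase of apical exocytosis, had a log2 change of 0.21 (limma adjusted p = 0.199), with the sign reversed by median-of-ratios scaling or quantile normalization.

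Of the 9 subunits of the exocyst, the complex that tethers vesicles, 3 (33.3%) were called, all higher, which is near the 31.2% called among all genes. After median-of-ratios scaling 0 of the 9 were called, beside 17.2% of all genes. Exoc4 rose by 0.75 (limma adjusted p = 0.0238), from 21.1 ± 4.03 to 35.8 ± 4.25 TPM (SD, n = 3 each). Exoc7, the membrane-binding subunit, had a change of 0.32 (limma adjusted p = 0.0816), or -0.12 with median-of-ratios scaling. Of 14 SNARE and Munc18 genes, which drive fusion, 2 (14.3%) were called, both higher, beside 31.2% of all genes, and their median log2 change of 0.08 was the lowest of the 6 partner lists. With median-of-ratios scaling 0 of the 14 were called higher and 1 lower, beside 17.2% of all genes called. The 1 called lower was Snap23 (log2 change -0.63, limma adjusted p = 0.0448). The target SNAREs Stx2 and Snap23 had changes of -0.15 and -0.18, and the vesicle SNAREs Vamp2 and Vamp3 had 0.46 and -0.23, with limma adjusted p of 0.478, 0.342, 0.0370 and 0.266. Vamp2 was called in 5 of 17 alternative settings. Stxbp2, which encodes the Munc18 protein that binds syntaxin 3, went from 80.2 ± 3.73 to 110 ± 19.5 TPM, and its change of 0.44 did not pass the test (limma adjusted p = 0.0603) and was -0.01 after median-of-ratios scaling.

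**Figure D4:**
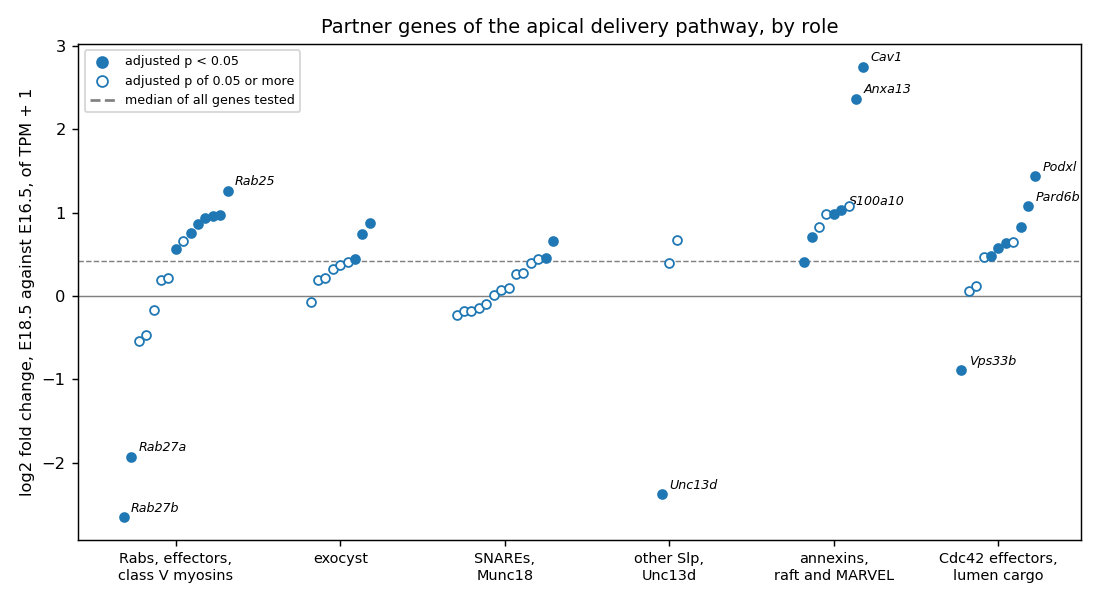
Log2 fold change of TPM + 1 between E18.5 and E16.5 for the 61 partner genes tested, grouped by role; filled points have an adjusted p under 0.05 in limma and the dashed line is the median of all genes tested, 0.42. The annexin and raft genes lie at 0.41 to 2.75, whereas Rab27b at -2.65, Unc13d at -2.38 and Rab27a at -1.93 are the lowest points.

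Partners of Anxa2 and of the raft carriers were higher at E18.5 in 6 of 9 cases by the test, beside 26.0% of all genes, and in 4 of 9 after median-of-ratios scaling, beside 1527 of 22452 genes. Their median log2 change was 0.99, beside 0.42 for all genes. S100a10, the light chain that joins annexin A2 in a tetramer, was at 196, 166 and 128 TPM at E16.5, against 303, 359 and 330 TPM at E18.5. It rose by 1.03 (SE 0.17, limma adjusted p = 0.0116), without overlap, and was called in all 17 alternative settings. Anxa13, an annexin of apical transport, went from 15.7, 10.4 and 3.15 TPM to 49.8, 55.0 and 36.9 TPM, a rise of 2.37 (limma adjusted p = 0.0164). Cav1, the coat protein of caveolae, rose most among the partners, by 2.75 (limma adjusted p = 0.00854), from 4.81 ± 2.39 to 36.6 ± 9.57 TPM (SD, n = 3 each). The mesenchymal sum, 283 to 443 TPM in E16.5 libraries and 575 to 1031 TPM in E18.5 libraries, was higher at the same stage, and its part in the change of Cav1 and the other annexin and raft genes was not tested.

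Among 11 partners of Cdc42 and apical cargo genes, 6 were called higher and 1 lower, beside 26.0% and 5.22% of all genes. After median-of-ratios scaling 2 of the 11 were called higher and 2 lower, beside 1527 and 2335 of 22452 genes. Pard6b, the Par-complex subunit that binds active Cdc42, was at 36.7, 41.3 and 25.2 TPM at E16.5, against 79.2, 71.7 and 66.6 TPM at E18.5. It rose by 1.08 (SE 0.19, limma adjusted p = 0.0133), whereas Cdc42 itself was not called. Dnmbp, which encodes the Cdc42 exchange factor Tuba, rose by 0.58 (limma adjusted p = 0.0284). Podxl, which encodes the luminal sialomucin podocalyxin, rose by 1.44 (limma adjusted p = 0.0142), from 15.8 ± 5.32 to 43.5 ± 8.88 TPM (SD, n = 3 each). Vps33b, known for its role in apical membrane traffic and in platelet granules, was chosen for naming after its value was seen: it fell by 0.89 (limma adjusted p = 0.0302), from 50.6 ± 11.3 to 26.9 ± 7.02 TPM (SD, n = 3 each), and was highest in replicate C and lowest in replicate B at E16.5. At E18.5 Vps33b was highest in replicate B and lowest in replicate C, whereas the megakaryocyte sum was lowest in replicate A. It was called in 10 of 17 alternative settings. Of the partners named as rising, S100a10, Anxa13, Cav1, Pard6b and Podxl were also called after median-of-ratios scaling, and Rab25, Myo5c, Exoc4 and Dnmbp were not.

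Promoter sequences are printed for the called genes Stx3, Anxa2 and Sytl4, so that the regions before the RefSeq starts of the genes that rose and of the gene that fell can be read side by side. The 250 bases before the RefSeq start of each gene are given 5′ to 3′ on the strand of the gene, from RefSeq on GRCm38.p6, which held a promoter for 6 of the trafficking genes. They lie at chr19:11819404-11819653 (minus strand), chr9:69453433-69453682 (plus strand) and chrX:133981813-133982062 (minus strand). For Anxa2 the RefSeq start lies inside the gene as placed above, which begins at 69453620, so the printed stretch runs past that beginning. Capitals mark matches to the motifs searched on both strands.
Stx3: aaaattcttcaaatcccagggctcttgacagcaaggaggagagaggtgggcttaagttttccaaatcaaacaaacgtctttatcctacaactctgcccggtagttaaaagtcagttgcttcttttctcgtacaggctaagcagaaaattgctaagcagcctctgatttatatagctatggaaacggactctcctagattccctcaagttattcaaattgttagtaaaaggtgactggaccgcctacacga
Anxa2: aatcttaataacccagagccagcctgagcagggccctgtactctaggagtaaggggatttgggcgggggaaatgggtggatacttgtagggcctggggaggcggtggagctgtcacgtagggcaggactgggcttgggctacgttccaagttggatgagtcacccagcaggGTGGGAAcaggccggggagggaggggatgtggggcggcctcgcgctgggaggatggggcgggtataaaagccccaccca
Sytl4: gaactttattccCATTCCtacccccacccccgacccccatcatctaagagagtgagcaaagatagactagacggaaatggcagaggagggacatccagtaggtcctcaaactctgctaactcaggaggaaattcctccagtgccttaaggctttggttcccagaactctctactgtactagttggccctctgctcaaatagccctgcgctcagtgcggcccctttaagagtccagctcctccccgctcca

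The letters searched were AACCNGTT for grainyhead-like factors, GGAATG for TEAD factors, GTGGGAA for RBPJ, ACAATG for SOX factors and CACGTG for the E-box, in windows that ran to 50 bases after the start. The Anxa2 window held 1 match, GTGGGAA beginning at base -79, and 6.38% of 32851 promoters held this word. The Sytl4 window held the TEAD word on the other strand at base -238, a word found in 14.7% of promoters. No match was found for Stx3. The grainyhead-like, SOX and E-box words occurred in 2.09%, 12.6% and 7.15% of promoters and in none of these 3 windows. A match is a description of the letters and names no bound factor.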

How the data were processed

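RNA from 6 pools of sorted GFP-positive cells was sequenced with a stranded total RNA kit. According to the study's methods and the submitters' processing notes, the authors checked reads with FastQC 0.11.7, trimmed them with Trimmomatic, aligned them to GRCm38 with HISAT2 2.1.0, counted them per gene with HTSeq 0.5.4p3 on a GENCODE annotation, and turned the counts into TPM. The values the authors deposited are these TPM, which sum to 1000000 in each library. Samples were assigned to stages from their labels. Gene names, places and exon lengths came from GENCODE vM21, which holds 52403 of the 52550 identifiers. The 37 mitochondrial genes listed are at 0 in every library.

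Reads were recovered for 49583 genes as TPM times exon length over the value of 1 read, and were whole within 0.01 for 100% of values of genes with the same identifier version. They gave the depths, the 95% exact intervals and the limit of 3 reads, which cover counting error only. The identifier of Mal2 differs in version, so it has no recovered reads. The test between stages was limma's (version 3.58.1, under R 4.3.3), with lmFit and a trended eBayes fit of log2(TPM + 1), for genes whose mean TPM was 1 or more, with Benjamini-Hochberg adjustment at 0.05. Fold changes on this scale understate those of low genes. Intervals and exact two-sided permutation tests were computed in Python 3.11.15 with scipy 1.17.1. The steps were tested on simulated data.

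The members, partner lists, marker lists and motifs were chosen with earlier results of these data known. Named partners are direct partners or paralogs of the members, plus up to 3 with the largest change in each direction among those called without overlap. The main fit did not treat the replicate letters as pairs. There were 17 alternative settings: another pseudocount (0.1), no filter, a minimum mean of 5 TPM, median-of-ratios, quantile and haemoglobin-free scaling, 2 other eBayes settings, the letters as a block, voom on recovered reads, each library left out, and, chosen after seeing the data, E16.5 replicate C and E18.5 replicate B left out together.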

Additional observations from a re-analysis of the deposited data

How the results depend on the processing

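There were 3 pools per stage, and the level of Mal in E16.5 replicate C rested on 4 reads. The 9 trafficking genes gave 4 calls, against 3 with median-of-ratios scaling, 2 with quantile normalization, 1 without E16.5 replicate C and E18.5 replicate B, and 0 to 4 with 1 library left out, where the lowest count came without E18.5 replicate A and the next, 1, without E18.5 replicate B. Rescaling without haemoglobin and structural RNA genes raised the counts, to 5 trafficking genes (Mal being the one added), 34 partners and 7774 of all genes. The 28 calls among partners became 16 with median-of-ratios scaling, 17 with quantile normalization, 10 without E16.5 replicate C and E18.5 replicate B, and 5 to 24 with 1 library left out, with 5 without E18.5 replicate A, 7 without E18.5 replicate B and 18 without E16.5 replicate C. Over all genes the 7000 calls became 4282 with no filter, 3862 with median-of-ratios scaling, 3796 with quantile normalization, 2374 without E16.5 replicate C and E18.5 replicate B, and 1148 to 5432 with 1 library left out; the share of calls that were higher at E18.5 was 83.3%, against 39.5% with median-of-ratios scaling and 50.5% with quantile normalization.

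The sign of the log2 change reversed with median-of-ratios scaling for Cdc42 (-0.23), Vamp8 (-0.38), Mal2 (-0.053), Rab8a (-0.23), Exoc7 (-0.12), Stxbp2 (-0.0095) and Sytl5 (-0.044), with quantile normalization for Vamp8 (-0.18) and Rab8a (-0.069), and with voom for Vamp8 (-0.055). That of Sytl2 ranged from -0.20 to 0.092 with 1 library left out. These scalings lower the median change of all genes, from 0.42 to 0.02 with median-of-ratios and 0.06 with quantile normalization. Stx3 was called in 14, Anxa2 in 11 and Myo5b in 10 of 17 settings. Of the named partners that were called, Rab27b, Unc13d, Cav1 and S100a10 held with any 1 library left out. Without E18.5 replicate A the call was lost for Rab25, Rab11fip1, Rab27a, Myo5c, Exoc4, Vamp2, Anxa13, Pard6b, Dnmbp and Vps33b, and without E18.5 replicate B for Rab25, Rab11fip1, Myo5c, Exoc4, Vamp2, Anxa13, Dnmbp and Podxl. Without E16.5 replicate C it was lost for Rab11fip1, Myo5c, Vamp2, Dnmbp and Vps33b, without E16.5 replicate A for Rab11fip1, Vamp2, Dnmbp and Vps33b, without E16.5 replicate B for Rab11fip1 and Vamp2, and without E18.5 replicate C for Rab25, Rab11fip1 and Vps33b. Same-letter libraries had correlations of deviations of -0.04, 0.08 and 0.14, and libraries of different letters had -0.15 to 0.08. With 3 libraries per stage, these values cannot decide whether the letters pair the samples. With the letters as a replicate block, 5 trafficking genes, 28 partners and 7314 genes were called, Mal2 being the trafficking gene that gained a call (limma adjusted p = 0.0472). A mean of at least 5 TPM left no value for Mal, Sytl2, Sytl1, Myo5a and Lgals3, and voom none for Mal2 and Anxa13, which have no recovered reads.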
